A study of Mus musculus with 33 samples.

Results

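The genes described here are 10 transcripts of antigen-presenting cells and macrophages, read in libraries of sorted CD8 T cells of mouse skin. They were chosen by symbol: the rows of both read count tables named H2-Aa, H2-Ab1, H2-Eb1, Cd74, Lyz2, C1qa, C1qb, C1qc, Retnla and Ccl24, 10 of 18054 gene rows in the first experiment and 10 of 18052 in the second. The study followed allergic contact dermatitis to the hapten dinitrofluorobenzene (DNFB) and asked how TA, a topical glucocorticosteroid used at 0.01%, affects tissue-resident memory T cells (TRM), a CD8 population that persists in the skin and bears the surface proteins CD69 and CD103. Live CD45+CD8+ cells were sorted by flow cytometry, and their RNA was read by CEL-seq2, a method that counts reads near the 3′ end of transcripts, in 33 libraries of 16 sorted groups.

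All cells of the first experiment were CD69+CD103+ TRM of DNFB-allergic Nur77GFP mice, whose GFP marks cells that recently signalled through their antigen receptor. GFP-negative TRM were taken on day 0, just before DNFB was given again, from mice given acetone (3 libraries) or TA (2 libraries). On day 1, 24 hours after the retest, GFP-negative and GFP-positive TRM were taken from acetone and from TA mice, 2 libraries each. On day 6, 144 hours after it, GFP-negative TRM were taken from acetone and from TA mice, 2 libraries each. The second experiment used DNFB-sensitized wild-type C57BL/6 mice, 2 libraries a group. It covered CD69+CD103+, CD69+CD103-, CD69-CD103+ and CD69-CD103- CD8 T cells without treatment on day 2 after DNFB, and CD69+CD103+ TRM on day 11 and day 42, with acetone or TA. The labels do not say which libraries came from separate animals or pools, so a p-value here measures the spread between these libraries only.

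The table headers give a numeric code for each group, with the GFP state and a replicate letter in the first experiment and a second code in the other. Day 0 acetone was read from its 3 letters, which no other group has, and the day 1 groups from their GFP-positive libraries. Day 2 CD69+CD103+ cells were read from the second code that they share with all day 11 and day 42 groups. The 2 treatments of day 1 are therefore called arm I and arm II, without saying which was TA. Sets K, L and M are day 0 TA, day 6 acetone and day 6 TA in unknown order, subsets U, V and W are the other day 2 subsets, and sets P, Q, R and S are the 4 groups of day 11 and day 42. No treatment effect is therefore given by name.

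MHC class II molecules present peptides from outside the cell to CD4 T cells. Their α and β chains (here H2-Aa with H2-Ab1, and the β chain H2-Eb1) assemble with the invariant chain, encoded by Cd74, which blocks the groove until proteases cut it away. In the mouse these genes are read strongly in dendritic cells, Langerhans cells, macrophages and B cells, under the coactivator CIITA, which works through factors bound to the X and Y boxes of their promoters. C1qa, C1qb and C1qc encode the 3 chains of C1q, the first component of the classical complement pathway, made mainly by macrophages and immature dendritic cells. Lyz2 encodes lysozyme of macrophages and neutrophils, Retnla a secreted protein of macrophages exposed to interleukin 4 or 13, and Ccl24 the eosinophil chemoattractant eotaxin-2.

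On GRCm38 (GENCODE vM21) all members are protein-coding genes. H2-Ab1 (ENSMUSG00000073421.6) lies at chr17:34257689-34269419 on the plus strand, H2-Aa (ENSMUSG00000036594.15) at chr17:34282744-34287823 on the minus strand and H2-Eb1 (ENSMUSG00000060586.11) at chr17:34305867-34316674 on the plus strand. These 3 genes span 59.0 kb of the MHC. C1qb (ENSMUSG00000036905.8) lies at chr4:136880129-136886187, C1qc (ENSMUSG00000036896.5) at chr4:136889804-136893065 and C1qa (ENSMUSG00000036887.5) at chr4:136895917-136898803, all on the minus strand within 18.7 kb. Lyz2 (ENSMUSG00000069516.8) is at chr10:117277331-117282321, Retnla (ENSMUSG00000061100.4) at chr16:48842551-48844461 and Ccl24 (ENSMUSG00000004814.10) at chr5:135569937-135573049.

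Promoters of H2-Aa and H2-Eb1 are shown because these genes moved together across the libraries and share a pair of X and Y box motifs that the other matched members lack. The sequences are from RefSeq (GRCm38.p6), 5′ to 3′ on the gene's strand and ending just before the gene's start. H2-Aa is the minus strand of chr17:34287824-34287934 and H2-Eb1 the plus strand of chr17:34305746-34305865. Capitals mark GCAAC, a stretch of the X box, and TGATTGG, the Y box.
H2-Aa: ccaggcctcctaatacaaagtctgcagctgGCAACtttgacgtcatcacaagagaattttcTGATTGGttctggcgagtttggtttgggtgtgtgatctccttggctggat
H2-Eb1: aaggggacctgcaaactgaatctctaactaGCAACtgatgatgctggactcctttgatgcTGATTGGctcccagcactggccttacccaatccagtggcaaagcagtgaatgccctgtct
The 2 motifs are 26 bases apart in H2-Aa and 25 in H2-Eb1. TGATTGG begins 50 and 61 bases before the gene's start in GENCODE vM21, which for H2-Eb1 is at 34305867 while its window ends at 34305865. Of the 10 members 6 had a promoter in the RefSeq table. H2-Aa and H2-Eb1 held both motifs, and Lyz2, C1qb, C1qc and Retnla held neither. Among all 32851 promoters of the table, each 300 bases long, 7.82% held TGATTGG on either strand. GCAAC followed by TGATTGG within 40 bases, on either strand, was found in 115 (0.350%). In a list of 15 other class II pathway genes 13 had a promoter in the table, 6 of these held TGATTGG in one, and H2-Eb2, H2-Oa and H2-Ob held both. A match of letters is a description of the window and not a bound site.

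Library totals ran from 2442825 to 8515297 counts in the first experiment, with 22.2 to 36.7% mitochondrial transcripts, and from 2937814 to 13629838 with 12.8 to 21.3% in the second. The libraries carried the T cell genes they were sorted for: 11 rows of a T cell identity list (of 12 genes, led by Thy1, Cd3g, Cd2 and Cd3e) summed to 7606 to 16255 CPM (counts scaled to a library total of 1000000) in the first experiment and none of them was without counts in any set. Transcripts of other skin cells were read as well, with 16 keratinocyte genes summing to 519 to 6592 CPM in that experiment. In bulk RNA, fewer cells of a type and less RNA per cell cannot be told apart. Levels are compared between libraries, and not between genes, since 3′ reads carry no common scale across genes.

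The 4 class II genes were read in all 33 libraries, except H2-Ab1 in 1. In the first experiment the median was 87.0 CPM (0.781 to 303) for H2-Aa, 69.5 (0 to 189) for H2-Ab1, 69.6 (2.46 to 236) for H2-Eb1 and 33.8 (0.781 to 88.9) for Cd74. In the second it was 103 (17.0 to 262) for H2-Aa, 124 (51.7 to 382) for H2-Ab1, 93.9 (13.6 to 182) for H2-Eb1 and 45.5 (11.6 to 119) for Cd74. The macrophage genes were sparse in most libraries and high in a few. The highest C1qb level was 38.8 CPM in the first experiment (median 0.286), while the second experiment reached 36.0 (median 1.85). Ccl24 reached 47.4 CPM in the first experiment and was without counts in 9 of 17 libraries, and Retnla reached 59.1 CPM against a median of 0.391. Lyz2 did not pass 1.04 CPM (8 counts) in the first experiment, where 12 of 17 libraries held none, or 3.16 CPM (36 counts) in the second. Its 3′ reads could not be shown to be kept apart from those of Lyz1, a close copy, whose highest levels were 13.7 and 69.1 CPM in these experiments.

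**Figure D1:**
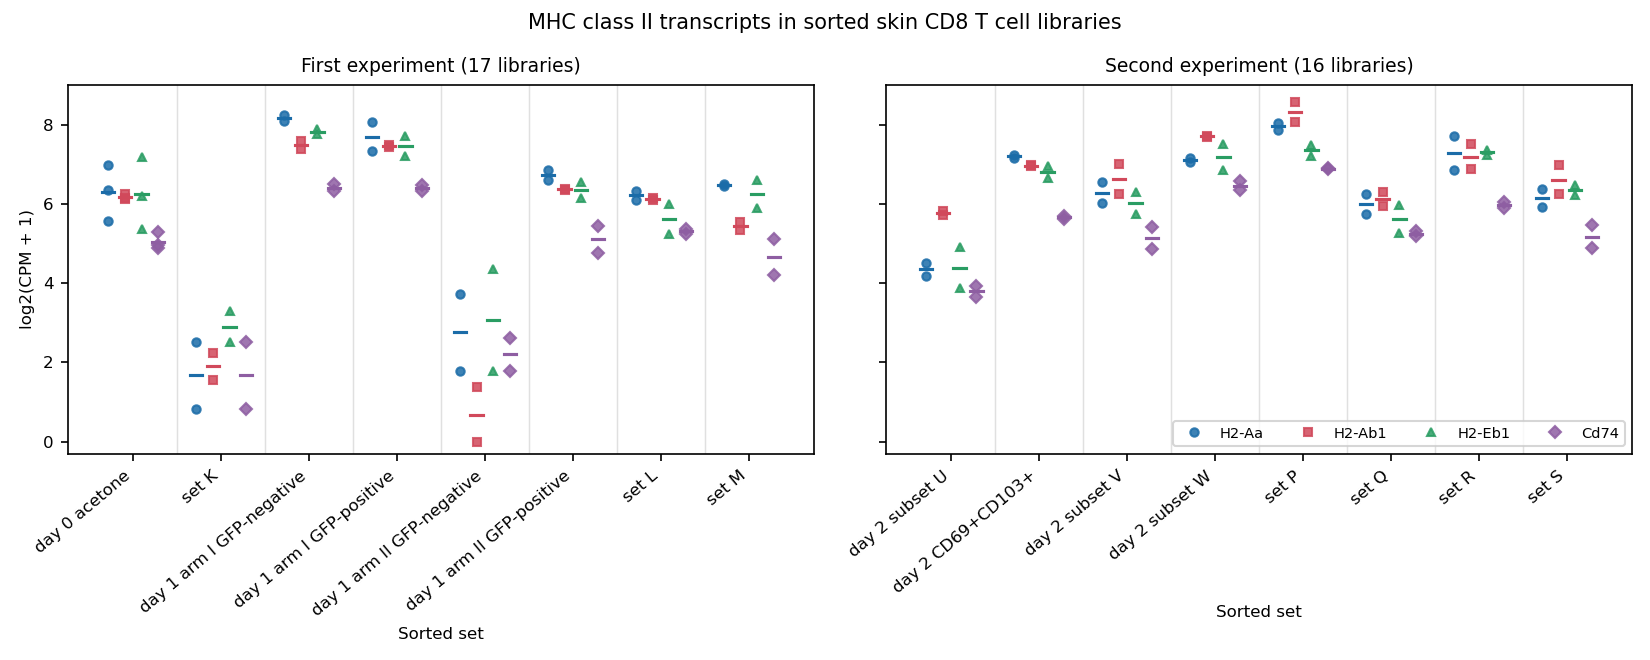
H2-Aa, H2-Ab1, H2-Eb1 and Cd74 in each sorted set, as log2(CPM + 1) on the y axis, 1 point per library and a bar at the mean of these values. Set K and the GFP-negative cells of arm II lie lowest in the first experiment and subset U in the second, and the 4 genes keep nearly the same order of sets.

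The order of the sets in the first experiment is given for the sum of the 4 class II genes. GFP-negative cells of arm I stood highest at 773 ± 16 CPM (SD, n = 2), then GFP-positive cells of arm I at 649 ± 116 (n = 2). A middle block held GFP-positive cells of arm II at 303 ± 14.1 (n = 2), day 0 acetone at 273 ± 86.7 (n = 3), set M at 234 ± 41.5 and set L at 230.2 ± 25.4 (n = 2 each). GFP-negative cells of arm II at 22.9 ± 22.0 and set K at 15.1 ± 9.77 (n = 2 each) stood lowest. Libraries of neighbouring sets did not overlap at 3 of 7 steps: between both arm I sets, below them, and between set L and the GFP-negative cells of arm II. Within the middle block and within the lowest pair they overlapped.

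The question of the day 1 sort was how TRM that had just signalled through their receptor (GFP-positive) differ from those that had not. In arm I the class II genes were high in both sorts, while the macrophage genes Retnla, Ccl24 and C1qb were higher in the GFP-positive sort. In arm II all 4 class II genes and C1qb were higher in GFP-positive cells, and Retnla and Ccl24 were near 0 in both sorts. Genes were tested by edgeR's quasi-likelihood test over all genes with enough counts (11588 in the first experiment, 9 of the 10 members, without Lyz2), with Benjamini-Hochberg adjustment and a call under 0.05.

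H2-Aa, the α chain of the I-A molecule, was at 303 and 269 CPM in GFP-negative and 266 and 160 CPM in GFP-positive libraries of arm I. In arm II it was at 2.46 and 12.3 CPM in GFP-negative and 115 and 96.3 CPM in GFP-positive libraries. Both GFP-negative libraries of arm II thus lay far below the other 6 day 1 libraries. H2-Aa was 14.3 times higher in GFP-positive than in GFP-negative cells of arm II (log2 fold change 3.93 ± 0.58 SE, adjusted p = 0.000502), and the difference in arm I did not pass the test (-0.28 ± 0.46, adjusted p = 0.853).

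H2-Ab1, its β chain, was at 166 and 189 CPM in GFP-negative and 177 and 171 CPM in GFP-positive libraries of arm I. In arm II it was at 0 and 1.59 CPM (0 and 4 counts) in GFP-negative and 82.5 and 81.0 CPM (269 and 217 counts) in GFP-positive libraries. The arm I sorts overlapped and the arm II sorts lay 103-fold apart in their means, a ratio that rests on 4 counts in the lower set. The log2 difference was 6.73 ± 0.47 in arm II (adjusted p = 1.39e-08) and 0.13 ± 0.28 in arm I (adjusted p = 0.890).

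H2-Eb1, the β chain of I-E, was at 236 and 215 CPM in GFP-negative and 208 and 148 CPM in GFP-positive libraries of arm I. In arm II it was at 2.46 and 19.5 CPM in GFP-negative and 69.6 and 93.3 CPM in GFP-positive libraries. It followed the pattern of H2-Aa and was 7.44 times higher in GFP-positive cells of arm II (log2 2.99 ± 0.68, adjusted p = 0.0141). That call was lost without replicate A of the GFP-negative cells (adjusted p = 0.0806), or without replicate A or B of the GFP-positive cells of arm II (0.0620 and 0.105).

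Cd74 (ENSMUSG00000024610.15, chr18:60803848-60812652, plus strand), the invariant chain, was at 78.9 and 88.9 CPM in GFP-negative and 79.3 and 88.1 CPM in GFP-positive libraries of arm I. In arm II it was at 2.46 and 5.16 CPM in GFP-negative and 26.1 and 42.6 CPM in GFP-positive libraries. It thus moved with the class II chains, 9.01 times higher in GFP-positive cells of arm II (log2 3.26 ± 0.52, adjusted p = 0.000448) and level between the sorts of arm I within their spread (0.16 ± 0.40, adjusted p = 0.911).

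Of the C1q chains, C1qb was at 4.04 and 2.23 CPM in GFP-negative and 36.4 and 38.8 CPM in GFP-positive libraries of arm I. In arm II it had no count in either GFP-negative library and was at 11.3 and 6.72 CPM (37 and 18 counts) in the GFP-positive ones. GFP-positive libraries were higher in both arms without overlap, 11.99 times in arm I (log2 3.73 ± 1.01, adjusted p = 0.0352) and at least 14.9-fold in arm II, against a floor of 3 counts over the GFP-negative set (adjusted p = 0.00897). The arm I call was lost without any 1 of its 4 libraries (adjusted p 0.154 to 0.266), and the arm II call without replicate B of the GFP-negative cells (0.0517).

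C1qc was at 1.84 and 2.08 CPM in GFP-negative and 22.3 and 13.8 CPM in GFP-positive libraries of arm I, a 9.23-fold difference that did not pass (log2 3.34 ± 1.70, adjusted p = 0.359). In arm II 1 of its GFP-positive libraries was at 11.0 CPM and the other 3 libraries were at 0. C1qa was low throughout, at 0.551 and 1.63 against 2.11 and 3.66 CPM in arm I, and in arm II it had 12 counts (4.48 CPM) in 1 GFP-positive library and none in the others. The 12 counts of C1qa and the 36 counts of C1qc in arm II came from different libraries.

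Retnla was at 1.29 and 1.04 CPM (7 counts each) in GFP-negative and 59.1 and 52.5 CPM (503 and 330 counts) in GFP-positive libraries of arm I. In arm II it had 1 and 2 counts in GFP-negative and none in GFP-positive libraries. Among the sorts of arm I it was 47.97 times higher in GFP-positive cells (log2 5.72 ± 0.97, adjusted p = 0.000937), and in the other 15 libraries of the experiment it did not pass 1.29 CPM. Ccl24 had the same shape, with no count in GFP-negative and 47.4 and 36.2 CPM (404 and 228 counts) in GFP-positive libraries of arm I, at least 169.9-fold higher (adjusted p = 0.000381). It had no count in GFP-positive libraries of arm II. Both genes had 7 counts or fewer in each of the other 15 libraries of the experiment and so entered the tests through these 2 libraries alone, and their p-values add little to the counts themselves.

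Of the 9 members tested, 3 were called higher (2 of them Retnla and Ccl24) and 0 lower for GFP in arm I, where 2.33% of all genes were called higher and 3.03% lower. In arm II 5 were called higher and 0 lower, against 4.06% and 4.01% of all genes. The median log2 difference of the 9 was 1.57 in arm I and 3.93 in arm II, beside -0.03 and 0 over all genes tested.

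The GFP difference itself differed between the arms. The log2 difference of arm II minus that of arm I was 6.59 ± 0.56 for H2-Ab1 (adjusted p = 1.16e-06), 4.21 ± 0.74 for H2-Aa (0.0101) and 3.10 ± 0.66 for Cd74 (0.0253), and 3.18 ± 0.89 for H2-Eb1 did not pass (0.137). Retnla went the other way and was called (adjusted p = 0.0410), and Ccl24 missed the call (0.116). The fitted difference of Retnla depends on the prior count because arm II GFP-positive libraries held none. Retnla entered the test through the GFP-positive libraries of arm I alone, so its p-value adds little to its counts. So 3 members were called higher and 1 lower, against 0.639% and 0.25% of all genes. H2-Ab1 kept its call without any 1 of the 8 libraries. Leaving out 1 library ended the call of H2-Aa in 5 of 8 cases (adjusted p up to 0.116), that of Cd74 in 6 of 8 (up to 0.106) and that of Retnla in all 8 (0.0639 to 0.222).

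**Figure D2:**
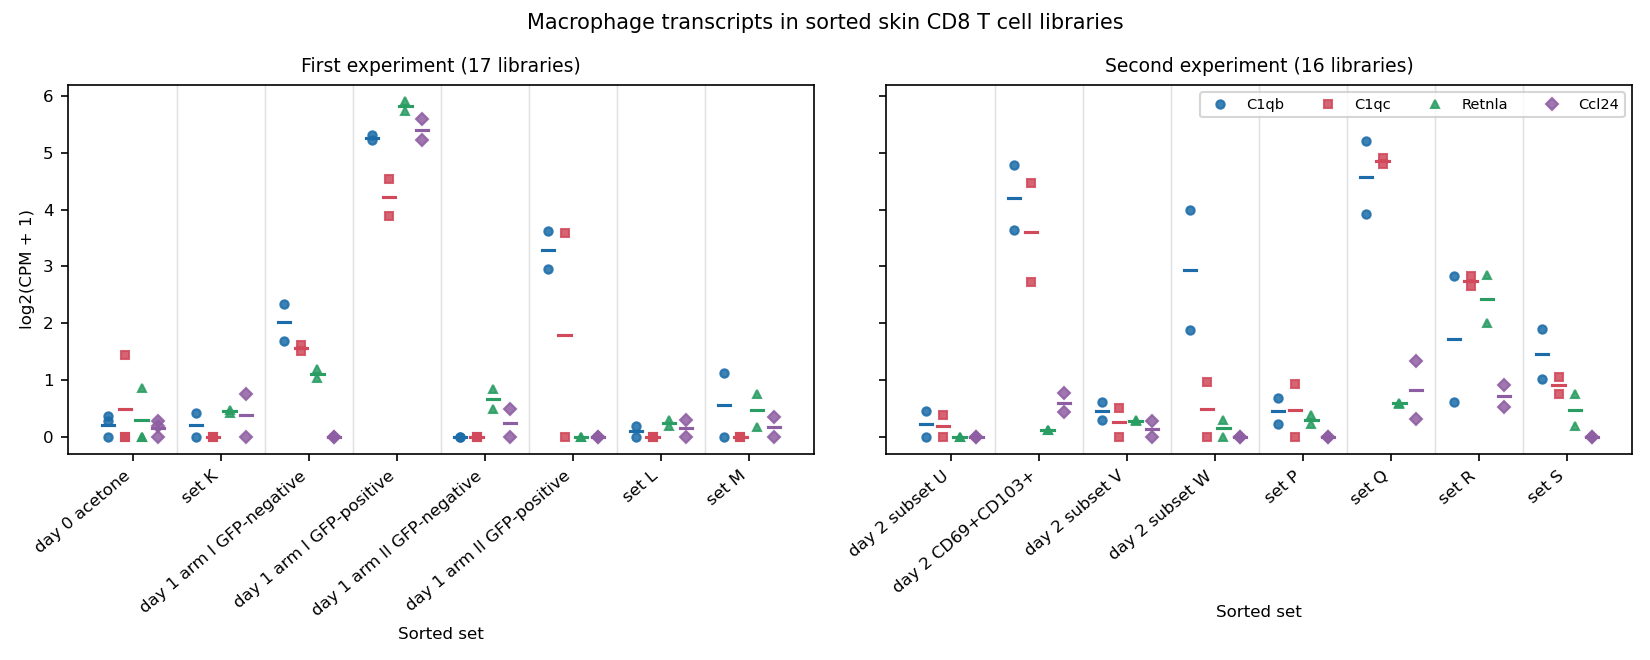
C1qb, C1qc, Retnla and Ccl24 in each sorted set, as log2(CPM + 1) on the y axis, 1 point per library and a bar at the mean of these values. All 4 are high in the GFP-positive cells of arm I, where Retnla is at 59.1 and 52.5 CPM, and in the second experiment C1qb and C1qc are high in day 2 CD69+CD103+ cells and set Q while Ccl24 stays low.

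Between the arms, all 4 class II genes were lower in arm II in GFP-negative cells, and in GFP-positive cells H2-Ab1 alone of the 4 passed the test. In GFP-negative cells H2-Ab1 was 224-fold lower in arm II (log2 -7.80 ± 0.46, adjusted p = 1.34e-09), H2-Aa 38.8-fold (-5.32 ± 0.60, 2.80e-05), Cd74 22.0-fold (-4.50 ± 0.52, 9.22e-06) and H2-Eb1 20.6-fold (-4.41 ± 0.70, 0.00120). None of these 4 calls was lost by leaving out 1 library. C1qb, at 22 and 15 counts in arm I and 0 in arm II, was at least 5.18-fold lower and narrowly missed the call (adjusted p = 0.0511, and 0.0224 by DESeq2). Of the 9 members 0 were called higher and 4 lower, against 1.98% and 4.7% of all genes, and their median was -5.32 beside -0.07 over all genes.

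In GFP-positive cells the mean levels of the 4 genes in arm II were 2.02 to 2.44 times below those of arm I. H2-Ab1 was called (log2 -1.20 ± 0.28, adjusted p = 0.0222), a call lost without any 1 of the 4 libraries (0.0941 to 0.108). H2-Aa (-1.11 ± 0.47, 0.267), H2-Eb1 (-1.23 ± 0.59, 0.343) and Cd74 (-1.40 ± 0.42, 0.0818) were not. Retnla was at least 110.4-fold lower in arm II (adjusted p = 0.000273) and Ccl24 at least 82.9-fold (0.00178). Both genes entered the tests through the GFP-positive libraries of arm I alone, so these p-values add little to the counts themselves. C1qb was 4.16-fold lower without passing (-2.17 ± 0.95, 0.279). Here 0 members were called higher and 3 lower, Retnla and Ccl24 among them, against 0.923% and 2.24% of all genes. The members' median was -1.40 beside -0.09 over all genes.

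Other measures moved with the arms and with GFP. GFP-negative libraries of arm II were shallower (2442825 to 2519106 counts) and richer in mitochondrial transcripts (35.8 to 36.7%) than those of arm I (5440609 to 6741144 and 28.4 to 28.6%). Keratinocyte genes summed to 519 to 705 CPM in GFP-negative cells of arm II against 2634 to 2892 in arm I. A list of 24 macrophage genes with 21 rows, led by Ctsb, Ctsd, Apoe and Fcer1g, summed to 371 to 461 against 685 to 744 CPM, and 9 and 3 of its genes had no count. In GFP-positive cells that list summed to 289 to 330.0 CPM in arm II and 545 to 582 in arm I, so it was not highest where Retnla and Ccl24 were. In GFP-negative cells of arm II and arm I, 16 dendritic and Langerhans cell genes summed to 158 to 204 and 386 to 428 CPM. Over all libraries Cst3, Ccr7 and Irf8 led these genes by mean level. In the same sets, in that order, 9 neutrophil and mast cell genes summed to 11.5 to 11.9 and 82.0 to 89.3 CPM. Within arm II, GFP-positive libraries had 29.3 to 30.1% mitochondrial transcripts, against 35.8 to 36.7% in GFP-negative ones. Their dendritic and Langerhans cell genes summed to 295 to 306 CPM, against 158 to 204. Within arm I these measures were 22.4 to 25.9% against 28.4 to 28.6%, and 451 to 606 against 386 to 428 CPM. The class II sum of arm I was 649 CPM in GFP-positive and 773 in GFP-negative cells. Keratinocyte genes of arm II overlapped between the sorts, at 531 to 651 CPM in GFP-positive and 519 to 705 in GFP-negative libraries. B cell genes summed to at most 0.368 CPM on day 1 in 4 rows. The part of these measures in the class II differences was not tested.

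Against day 0 acetone, GFP-negative cells of arm I were higher and those of arm II lower in class II genes. Which arm shares the acetone treatment of that set is not known, so these are not time courses. The day 0 libraries were at 125, 81.1 and 46.2 CPM for H2-Aa and at 70.5, 68.7 and 74.8 CPM for H2-Ab1. They were at 144, 72.3 and 40.1 CPM for H2-Eb1 and at 28.5, 30.2 and 37.8 CPM for Cd74. Replicate C was lowest for H2-Aa and H2-Eb1 and highest for H2-Ab1 and Cd74, and for H2-Ab1 the 3 libraries lay close together. C1qb had 1, 2 and 0 counts, C1qc 0, 12 and 0, Retnla 4, 0 and 0 and Ccl24 1, 1 and 0 counts in these libraries.

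GFP-negative cells of arm I were above day 0 acetone, without overlap, for H2-Aa (3.40-fold, log2 1.97 ± 0.42, adjusted p = 0.0121), H2-Ab1 (2.49-fold, 1.52 ± 0.25, 0.000896) and Cd74 (2.60-fold, 1.59 ± 0.37, 0.0161). C1qb was called as well (0.0389), from 37 counts against 3, and H2-Eb1 was not (2.63-fold, 1.61 ± 0.52, 0.114). This made 4 members higher and 0 lower, against 2.78% and 1.16% of all genes. H2-Ab1 kept its call without any 1 library. H2-Aa lost it without either arm I library (0.174 and 0.0974), Cd74 without any of these 2 or day 0 replicate A or B (0.0538 to 0.110) and C1qb without any of the 5 (0.0730 to 0.227).

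GFP-negative cells of arm II were below day 0 acetone for all 4 class II genes. The ratio was 89.9-fold for H2-Ab1 (log2 -6.28 ± 0.46, adjusted p = 2.05e-08), 11.4-fold for H2-Aa (-3.35 ± 0.55, 0.00102), 8.45-fold for Cd74 (-2.91 ± 0.49, 0.000637) and 7.80-fold for H2-Eb1 (-2.80 ± 0.65, 0.0146). The call of H2-Eb1 was lost without arm II replicate A (0.0997), and the others held without any 1 library. So 0 members were called higher and 4 lower, against 3.48% and 5.15% of all genes. The members' median was -2.91 beside -0.11 over all genes (-0.15 with size factors by median of ratios). GFP-positive cells of arm II had a class II sum 1.11 times that of day 0 acetone, with overlapping libraries. GFP-negative cells of arm II (22.9 ± 22.0 CPM) overlapped in that sum with set K (15.1 ± 9.77 CPM), which is day 0 TA, day 6 acetone or day 6 TA. These comparisons share the day 0 libraries.

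**Figure D3:**
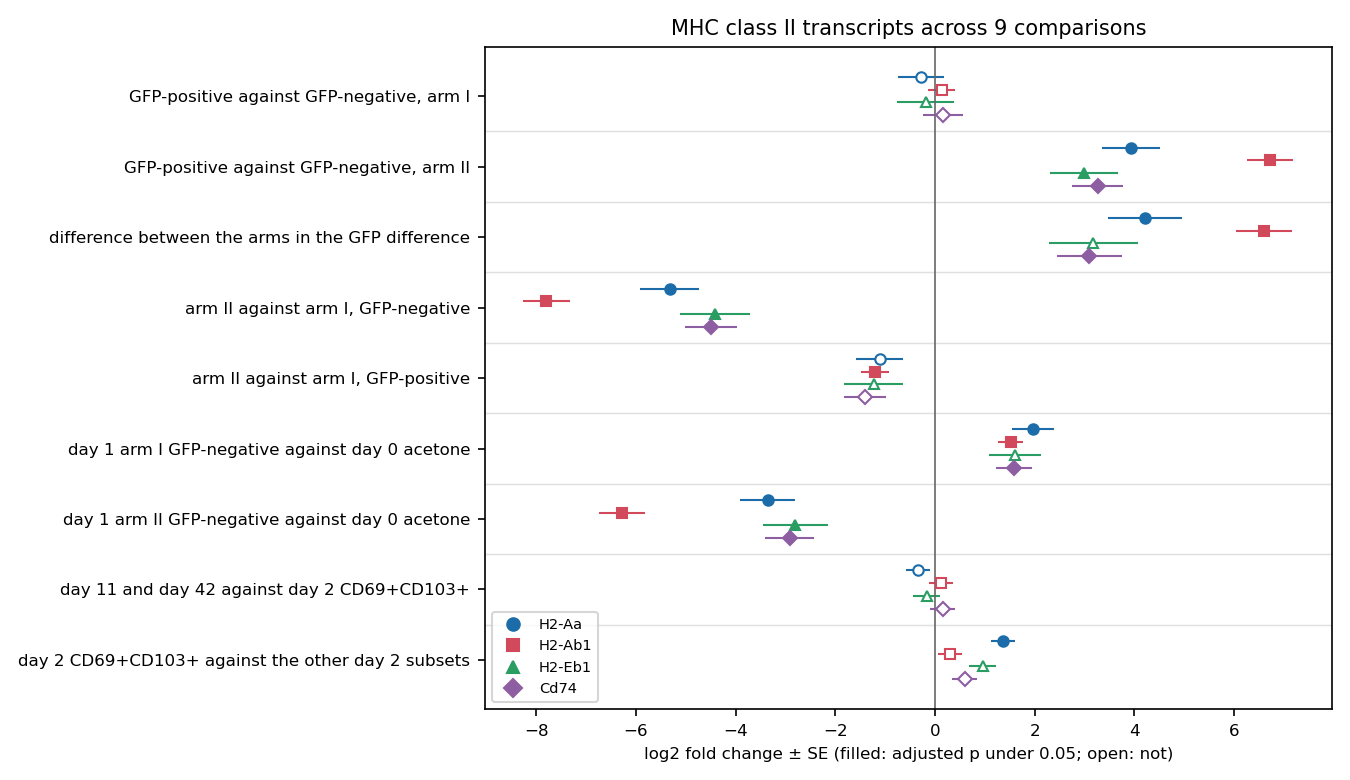
Log2 fold changes of H2-Aa, H2-Ab1, H2-Eb1 and Cd74 with their SE (x axis) in 9 comparisons (y axis), filled where the adjusted p was under 0.05. The 4 genes lie on the same side of 0 in each comparison that involves the GFP-negative cells of arm II, and H2-Ab1 lies farthest from 0 there.

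Among day 0 acetone and the sets of day 0 TA and day 6, set K stood apart. It was at 0.781 and 4.74 CPM (2 and 14 counts) for H2-Aa, at 1.95 and 3.73 (5 and 11 counts) for H2-Ab1, at 4.69 and 8.81 for H2-Eb1 and at 0.781 and 4.74 for Cd74. Set L was at 79.4 and 67.6 CPM for H2-Aa, 69.5 and 67.6 for H2-Ab1, 62.6 and 36.7 for H2-Eb1 and 36.7 and 40.3 for Cd74. Set M was at 89.8 and 87.0 CPM for H2-Aa, 39.6 and 45.9 for H2-Ab1, 58.0 and 96.7 for H2-Eb1 and 17.4 and 33.8 for Cd74. Every library of set K lay below every library of the other 3 sets for each gene, with a class II sum 18.1 times lower than that of day 0 acetone, while L, M and day 0 acetone overlapped in their sums. H2-Ab1 in set M lay below both other sets without overlap, 1.67 times below day 0 acetone.

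A test for any difference among the 4 sets called H2-Aa (adjusted p = 0.000555), H2-Ab1 (6.50e-07), H2-Eb1 (0.0173) and Cd74 (0.000693) and none of the 5 other members tested, 4 of 9 where 9.5% of all genes were called. In a fit without set K, chosen after seeing the data, 0 of 9 members were called by edgeR and 0 had an unadjusted p under 0.05 (adjusted p = 0.881 for H2-Aa, 0.375 for H2-Ab1, 0.751 for H2-Eb1 and 0.827 for Cd74); DESeq2 was not run without set K. H2-Eb1 also lost its call without any 1 of 5 libraries: set K replicate A (0.288) or B (0.176), set L replicate B (0.0538), or set M replicate A (0.0574) or B (0.0840). Set K libraries were shallow (2560156 to 2952120 counts) with 34.9 to 36.3% mitochondrial transcripts, close to the GFP-negative cells of arm II. Their macrophage list summed to 730.0 to 868 CPM with 11 of 21 genes at 0, against 1023 to 1065 CPM in day 0 acetone. Their keratinocyte genes summed to 1660 to 1703 CPM, against 3481 to 4071. Set L had a class II sum of 230.2 CPM. It was at 780 to 819 CPM for the macrophage list and at 1148 to 1266 for keratinocyte genes. Set M was at 934 to 949 and at 5913 to 6592 CPM for these lists. The part of these levels in the result was not tested. Retnla, Ccl24 and the C1q genes did not pass 1.72 CPM in these 9 libraries.

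In the second experiment class II transcripts were read in all sets, and their sum ran from 107 ± 2.69 CPM in subset U to 851 ± 78.7 in set P (SD, n = 2). Between them stood subset W at 580.1 ± 28.5, set R at 529 ± 107, day 2 CD69+CD103+ cells at 430.3 ± 18.4, set S at 287 ± 71.6, subset V at 279 ± 29.9 and set Q at 219.6 ± 15.6 CPM. Libraries of neighbours in that order overlapped only between W and R and between S and V. Here 12236 genes were tested, among them 9 members, without Ccl24.

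On day 2, H2-Aa was at 149.9 and 142 CPM in CD69+CD103+ cells, 21.9 and 17.0 in subset U, 63.6 and 92.4 in subset V and 131 and 141 in subset W. H2-Ab1 was at 123 and 124 CPM in CD69+CD103+ cells, 55.8 and 51.7 in U, 75.0 and 127 in V and 207 and 209 in W. CD69+CD103+ cells were above U in both genes, while W was above them in H2-Ab1 and just below in H2-Aa. H2-Eb1 was at 122 and 100.04 CPM in CD69+CD103+ cells, 13.6 and 29.0 in U, 77.9 and 52.6 in V and 182 and 115 in W. Cd74 was at 48.0 and 51.0 CPM in CD69+CD103+ cells, 14.2 and 11.6 in U, 41.4 and 28.2 in V and 80.3 and 94.5 in W. Subset U was thus lowest in all 4 genes without overlap, and W was highest in 3 of 4 by its mean.

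C1qb was at 26.5 and 11.4 CPM in CD69+CD103+ cells (306 and 130 counts), 0 and 0.374 in U, 0.520 and 0.226 in V and 14.97 and 2.67 in W. C1qc was at 21.2 and 5.62 CPM in CD69+CD103+ cells, at 0.295 and 0 in U, 0.416 and 0 in V and 0.954 and 0 in W. Both C1q chains thus stood out in CD69+CD103+ cells, C1qb was high in 1 library of W as well, and the CD69+CD103+ replicates differed by over 2-fold. C1qa stayed at or below 1.17 CPM, Retnla at or below 0.226 and Ccl24 at or below 0.694 CPM in these 8 libraries. Lyz2 had 1 and 36 counts in CD69+CD103+ cells.

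Against the mean of the other 3 subsets, CD69+CD103+ cells were higher in H2-Aa (log2 1.36 ± 0.24, adjusted p = 0.0131), C1qb (4.34 ± 0.86, 0.0319) and C1qc (5.63 ± 1.01, 0.0153), and the other class II genes were not called (0.30 ± 0.25 for H2-Ab1, 0.96 ± 0.27 for H2-Eb1 and 0.60 ± 0.25 for Cd74). Thus 3 of 9 members were higher and 0 lower, against 0.319% and 0.049% of all genes. Without CD69+CD103+ replicate 1 none of the 3 kept its call (adjusted p = 0.149, 0.413 and 0.354; 5 members had an unadjusted p under 0.05). H2-Aa was also lost without replicate 2 (0.0644), and C1qb without subset V replicate 2 (0.0664) or subset W replicate 2 (0.0582). A test for any difference among the 4 subsets called 6 of 9 members where 1.21% of all genes were called: H2-Aa (adjusted p = 0.000383), H2-Ab1 (0.0122), H2-Eb1 (0.00132), Cd74 (0.000768), C1qb (0.0317) and C1qc (0.0370). The class II calls held without any 1 library. C1qb lost its call without CD69+CD103+ replicate 1 (0.101) or subset V replicate 2 (0.0614), and C1qc without CD69+CD103+ replicate 1 (0.412). Of a macrophage list with 19 tested genes, 3 were higher in CD69+CD103+ cells, and its sum was 829 to 975 CPM there against 600 to 771 in the other subsets. Neutrophil and mast cell genes summed to 134 to 152 CPM there against 21.3 to 122. B cell genes, with 6 rows, summed to 5.36 to 14.7 CPM in subset W and 2.07 to 10.7 in U. They were at 1.81 to 3.12 CPM in V and 0.702 to 3.03 in CD69+CD103+ cells. The part of these lists in the class II and C1q differences was not tested.

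On day 11 and day 42, H2-Aa was at 233 and 262 CPM in set P, 75.3 and 52.8 in Q, 209 and 114 in R and 82.4 and 59.8 in S. H2-Ab1 was at 267 and 382 CPM in P, 60.9 and 77.3 in Q, 181 and 116 in R and 125 and 75.1 in S. H2-Eb1 was at 178 and 147 CPM in P, 37.1 and 61.7 in Q, 149.6 and 164 in R and 87.8 and 73.0 in S. Cd74 followed with 119 and 116 CPM in P, 35.4 and 38.8 in Q, 65.2 and 58.2 in R and 42.9 and 28.5 in S. By their means sets P and R were high in all 4 genes and Q and S low, R and S overlapped in H2-Ab1, and the class II sum of P was 3.88 times that of Q.

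The C1q genes ran another way. C1qb was at 14.1 and 36.0 CPM in Q, 0.160 and 0.601 in P, 0.532 and 6.07 in R and 1.02 and 2.70 in S. C1qc was at 26.8 and 29.1 CPM in Q, 0 and 0.901 in P, 5.32 and 6.07 in R and 0.681 and 1.08 in S. Set Q, lowest of the 4 in the class II sum, was thus highest in C1q, and P, highest in class II, was lowest in the C1q sum with overlap only with S. C1qa was at 9.09 and 6.42 CPM in Q, its highest levels in the experiment. Retnla was read in set R at 3.01 and 6.22 CPM (17 and 42 counts) and stayed at or below 0.681 in the other 14 libraries. Lyz2 was at 3.03 and 0.247 CPM in Q and at 2.38 and 2.97 in S.

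A test for any difference among these 4 sets called H2-Aa (adjusted p = 0.00287), H2-Ab1 (0.00176), H2-Eb1 (0.0282), Cd74 (0.00811) and C1qb (0.0380), and C1qc missed (0.0537), 5 of 9 members where 2.12% of all genes were called. H2-Eb1 lost its call without set Q replicate 1 (0.0894), and C1qb without set P replicate 1 (0.0687) or set Q replicate 2 (0.208). Against day 2 CD69+CD103+ cells, the mean of the 4 sets was lower in C1qb (log2 -2.80 ± 0.77, adjusted p = 0.0291), and none of the class II genes was called (-0.34 ± 0.24 for H2-Aa, 0.11 ± 0.24 for H2-Ab1, -0.17 ± 0.27 for H2-Eb1, 0.15 ± 0.25 for Cd74). Since set P lay above and set Q below the day 2 level in each class II gene, this mean joins sets that differ. So 0 of 9 members were higher and 1 lower, against 3.33% and 4.89% of all genes. The C1qb call was lost without day 2 replicate 1 (0.460) or replicate 2 (0.0510).

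**Figure D4:**
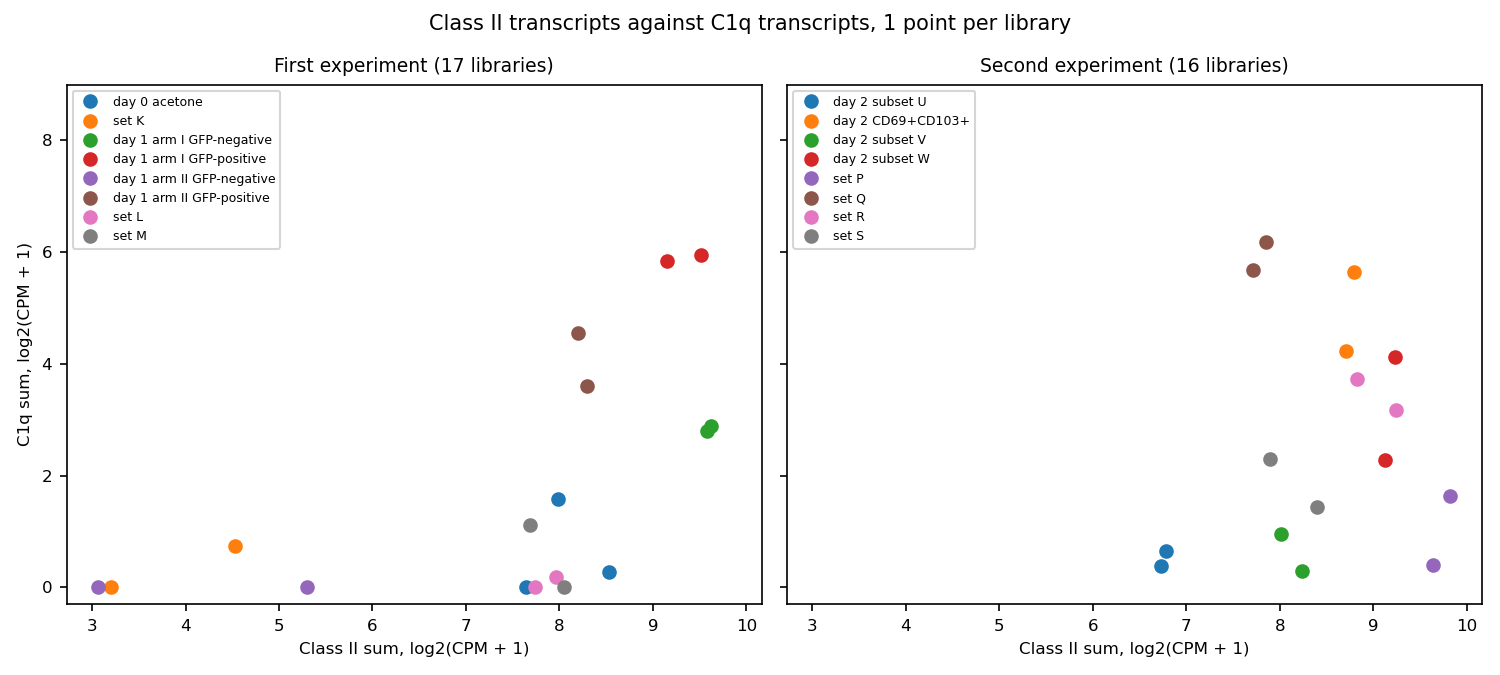
Sum of C1qa, C1qb and C1qc (y axis) against sum of H2-Aa, H2-Ab1, H2-Eb1 and Cd74 (x axis), both as log2(CPM + 1), 1 point per library, coloured by set. GFP-negative cells of arm I and set P are high in class II, with mean C1q sums of 6.18 and 1.21 CPM. The first of these lies above day 0 acetone (0.736 CPM) without overlap. Set Q has the most C1q at one of the lower class II sums of its experiment.

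Across libraries the 4 class II genes varied together. Pearson's r of log2(CPM + 1) between pairs of the 4 class II genes was 0.93 (H2-Eb1 and Cd74) to 0.97 (H2-Aa and H2-Eb1) over the 17 libraries of the first experiment and 0.80 (H2-Ab1 and H2-Eb1) to 0.93 (H2-Aa and Cd74) over the 16 of the second. C1qb and C1qc gave 0.89 and 0.81. Between the class II sum and the C1q sum r was 0.58 and 0.13. Retnla and Ccl24 gave 0.97 in the first, where both were high in the same 2 libraries, and 0.43 in the second. These values are descriptions over libraries that share sets and differ in depth.

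Of the other genes of the class II pathway 0 to 2 were called in each comparison. The list of 15 such genes (10 of them tested in one experiment and 13 in the other) covered peptide loading (H2-DMa, H2-DMb1, H2-DMb2, H2-Oa, H2-Ob), the transcription factors Ciita, Rfx5, Rfxap and Rfxank, the lysosomal enzymes Ctss, Ctsl, Lgmn, Ifi30 and Sppl2a, and H2-Eb2. By edgeR 0 were called in the GFP comparison of arm I (1 at an unadjusted p under 0.05, and 1 called by DESeq2) and 0 in the difference between the arms (1 and 0). Likewise 0 were called in day 2 CD69+CD103+ cells against the other subsets (2 and 0) and 0 among the day 2 subsets (1 and 1). In GFP-positive against GFP-negative cells of arm II 0 were higher and 1 lower, Ctss, which encodes cathepsin S, a protease that trims the invariant chain (log2 -1.12 ± 0.29, adjusted p = 0.0216), opposite in sign to the 4 class II members (3 at an unadjusted p under 0.05, and 1 called by DESeq2). In GFP-negative cells 2 were lower in arm II and 0 higher: Ifi30, a thiol reductase of the lysosome (-2.67 ± 0.54, 0.00406), and Sppl2a, which cleaves the invariant chain remnant (-1.31 ± 0.28, 0.00674), where 4.7% of all genes were lower. There 5 of the 10 had an unadjusted p under 0.05, DESeq2 called 4, and the list's median was -1.18 beside -0.07 over all genes. In GFP-positive cells Ctss was lower in arm II (-1.11 ± 0.29, 0.0371), with 4 at an unadjusted p under 0.05 and 2 called by DESeq2. Of all genes 4.01% were called lower for GFP in arm II, and 2.24% lower in arm II among GFP-positive cells.

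Against day 0 acetone, Sppl2a was higher in GFP-negative cells of arm I (0.96 ± 0.25, adjusted p = 0.0291) and Ifi30 lower in those of arm II (-3.76 ± 0.53, 9.20e-05), a larger log2 difference than those of H2-Aa, H2-Eb1 and Cd74. In arm I 2 had an unadjusted p under 0.05 and DESeq2 called 1, where 2.78% of all genes were called higher. In arm II 5 of 10 had an unadjusted p under 0.05, DESeq2 called 3, and the list's median was -1.51 beside -0.11 over all genes. There 5.15% of all genes were called lower. Ctsl (0.00485) and Ifi30 (0.00384) differed among day 0 acetone and sets K, L and M, where 9.5% of all genes were called. On day 11 and day 42 Ctss was lower than on day 2 (-0.87 ± 0.22, 0.0163), as was H2-Oa (adjusted p = 0.0223). In that comparison 4.89% of all genes were called lower, while 4 of the list had an unadjusted p under 0.05 and DESeq2 called 1. By contrast 0 of the list were called among the 4 later sets by edgeR, by DESeq2 or at an unadjusted p under 0.05. Ciita did not pass 1.84 CPM in any library. It had no count in set K, in either sort of arm II, in subsets U and V or in sets P and R. Set P, with the highest class II sum of the second experiment, thus held no read of Ciita, and a count of 0 allows up to 0.481 and 0.901 CPM in its libraries.

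The genes most like the class II sum over the 17 libraries of the first experiment, among 5568 at a mean of 10 CPM or more, were Gzmc (r = 0.93), Atp2a2 (0.92), Sub1 (0.92), Rnf11 (0.91) and Cbfb (0.90). Without set K and the GFP-negative cells of arm II, 13 libraries, r was 0.77 for Gzmc, 0.85 for Atp2a2, 0.81 for Sub1, 0.33 for Rnf11 and 0.19 for Cbfb, so that the last 2 rest on those 4 libraries. Gzmc, which encodes granzyme C, was at 7.81 to 27.1 CPM in set K, 27.0 to 30.7 in GFP-negative cells of arm II and 311 to 321 in those of arm I, but highest, at 607 to 648 CPM, in the GFP-positive cells of arm I. Most like the C1q sum were Hivep3 (0.95), Areg (0.93), Npm1 (0.93), Il10 (0.93) and Tma16 (0.92). Il10, the gene of interleukin 10, was at 512 to 645 CPM in GFP-positive cells of arm I, 22.8 to 60.4 in those of arm II and 9.01 to 19.4 in GFP-negative cells of arm I.

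In the second experiment, among 6352 genes over 16 libraries, the likest to the class II sum were Pou3f1 (0.85), Itgb1bp1 (0.77), Tor1aip1 (0.74), Spryd7 (0.74) and Supt7l (0.74). For the C1q sum they were Tmem106b (0.81), Cd14 (0.77), Uba6 (0.73), Ifi202b (0.72) and Snhg4 (0.71). No gene was named in both experiments. Cd14, a receptor of monocytes and macrophages, was at 19.0 to 56.3 CPM in set Q and 0 to 0.295 in subset U.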

How the data were processed

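RNA of sorted CD8 T cells was measured by CEL-seq2 in 33 libraries. The deposited tables hold raw read counts for each gene in each library. Tools listed per the submitters' processing notes are HTSeq, BWA 0.7.15 and bcl2fastq 2.2, with the build GRCm38. The sources used here do not give whether molecular barcodes were collapsed or how strand was used. CPM is a count over the library's total of gene rows, mitochondrial rows included. Tests on counts used edgeR 4.0.16 in R 4.3.3 (filterByExpr by set, TMM, robust quasi-likelihood F test, 1 mean per set, all libraries of an experiment), with Benjamini-Hochberg adjustment over all genes. Standard errors (SE) are the absolute log2 fold change divided by the root of the F statistic. Fold changes against a set without counts take a floor of 3 counts over that set. CPM, correlations and promoters were handled in Python 3.11.15 with pandas 2.3.3.

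The fits were first run on simulated data with the same spread for every gene and changes only in genes of moderate or high level. That run does not cover genes with few counts, such as Retnla and Ccl24. Alternatives were no low-count filter, median-of-ratios size factors, no mitochondrial rows, DESeq2 1.42.0, a replicate block (first experiment) and leaving out each library, with set K left out added after seeing the data. A set was named only where its header leaves a single reading of the labels. TA against acetone and day 11 against day 42 were not analysed here. The members, lists and tests were chosen with earlier results of these data known. Named are all 10 members, from each other list the 4 genes of highest mean CPM and the called class II pathway genes, and the 5 genes most like each sum. Floors cover counting error only.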

Additional observations from a re-analysis of the deposited data

Results flagged for a closer look

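For 4 members the difference between GFP-positive and GFP-negative cells was itself different in the 2 arms of day 1 by the interaction test of edgeR, given as the log2 difference of arm II minus that of arm I. It was 6.59 ± 0.56 for H2-Ab1 (adjusted p = 1.16e-06), 4.21 ± 0.74 for H2-Aa (0.0101) and 3.10 ± 0.66 for Cd74 (0.0253), and both GFP-positive libraries of arm II lay above both GFP-negative ones for each gene. For Retnla it was -10.38 (adjusted p = 0.0410), where the GFP-positive libraries held 59.1 and 52.5 CPM in arm I and no count in arm II, so that the size depends on the prior count. Retnla entered the test through those arm I libraries alone, so its p-value adds little to the counts. The calls of H2-Aa, Cd74 and Retnla were lost when certain single libraries were left out, as given above, and that of H2-Ab1 was not. The groups of set K and the GFP-negative cells of arm II held 2 libraries each, too few to test a single library as apart from its group.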

How the results depend on the processing

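Size factors by median of ratios and leaving out mitochondrial rows changed no count of members called in 12 comparisons, and DESeq2 kept each within 1.5 times. Without the low-count filter 6 members (3 in the reported test) were called between the arms in GFP-positive cells, and 2 (1) on day 11 and day 42 against day 2. With a replicate block 2 (4) were called for arm I GFP-negative cells against day 0 acetone (H2-Aa, adjusted p = 0.0582, and C1qb, 0.158, were lost), with set K left out 0 (4) among day 0 acetone and sets K, L and M, and the cause was not tested. Letters shared between sets did not pair the libraries: in 28 pairs of sets the correlation of deviations was -0.0572 to 0.0340, and the block is given only for this reason. Leaving out 1 library gave 1 to 4 members called for the difference between the arms, 1 to 4 for arm I GFP-negative cells against day 0 acetone, 0 to 2 for day 11 and day 42 against day 2 and 0 to 3 for day 2 CD69+CD103+ cells against the other subsets. The 0 of day 11 and day 42 arose by edgeR without day 2 replicate 1 (0 members with an unadjusted p under 0.05) or 2 (2 members), and DESeq2 on all libraries called 1. That of day 2 CD69+CD103+ cells arose without replicate 1, where 5 members had an unadjusted p under 0.05, and DESeq2 on all libraries called 3. No direction of a called member was reversed.

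Counts over all genes moved more. By DESeq2 they were 973 (621 by edgeR) and 1457 (935) for the GFP difference of arms I and II, 307 (103) for its difference, 1274 (775) and 695 (367) between the arms in GFP-negative and GFP-positive cells, and 810 (457) and 1505 (1000) against day 0 acetone in arms I and II. They were 1775 (1101) among day 0 acetone and sets K, L and M, 108 (45) for day 2 CD69+CD103+ cells, 491 (148) among day 2 subsets and 891 (259) among the later sets. Without the filter the counts were 310 for the difference of the GFP difference, 626 between the arms in GFP-positive cells, 687 for arm I against day 0 acetone, and 173, 570 and 943 for the last 3. With set K left out 499 genes were called (1101 with it), and with the block 287 (457 without it) for arm I against day 0 acetone. Leaving out 1 library gave 312 to 412, 626 to 741, 47 to 104, 356 to 556 and 179 to 251 genes for the 5 day 1 comparisons in the order above, 202 to 347 and 620 to 793 against day 0 acetone, 401 to 1041 (1005 with all libraries) for day 11 and day 42 against day 2 and 18 to 74 for day 2 CD69+CD103+ cells.

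CPM with TMM-scaled totals was 0.864 to 1.19 times the values given, and without mitochondrial rows 1.15 to 1.58 times. A macrophage gene with no count in a library is limited only to 3 counts of that library's total.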

Other observations

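Other genes of antigen-presenting cells were read with or apart from the members, named here after their values were seen. Pf4, a chemokine gene of platelets and some macrophages, reached 86.0 and 87.0 CPM in the 2 GFP-positive libraries of arm I but at most 0.593 CPM in the other 15 libraries of the first experiment. Ccl8, another chemokine gene, was at 20.8 to 32.2 CPM in the same 2 libraries and at most 0.259 in the others, and Mrc1, the mannose receptor of macrophages, at 9.63 to 14.9 and at most 0.339. In the second experiment Pf4 was at 18.8 to 52.5 CPM and Mrc1 at 9.60 to 23.7 CPM in set Q, where C1q was highest. Cd163, a macrophage scavenger receptor, was at 4.80 to 5.18 CPM in that set. Levels of these genes in the other sets of that experiment are not given here. The macrophage list summed to 1157 to 1174 CPM in set Q, 1054 to 1171 in R and 1070 to 1080 in S. It was at 659 to 872 CPM in set P. In the macrophage list as a whole, 1 of 14 tested genes was called higher and 2 lower by edgeR for GFP in arm I, against 2.33% and 3.03% of all genes. The list's median log2 difference was -0.28. Its sum was 545 to 582 CPM in GFP-positive against 685 to 744 CPM in GFP-negative cells. Ctsb, Ctsd and Apoe led that list (means of 269, 199 and 192 CPM over all libraries), so its sum says little about list genes at low levels.

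Cd207, which encodes langerin of Langerhans cells, was at 30.9 to 39.2 CPM in GFP-negative and 19.9 to 31.1 CPM in GFP-positive cells of arm I, where class II was highest. It was at 0 to 0.677 CPM in set K, 0 to 8.60 in GFP-negative cells of arm II and 8.89 to 15.5 in day 0 acetone. In the second experiment it was at 23.7 to 27.7 CPM in set P, the highest in class II, 0.253 to 0.494 in set Q and 0 to 0.187 in subset U. Set M, near day 0 acetone in class II, was at 0.130 to 1.49 CPM. The sum of the dendritic and Langerhans cell list, to which Cd207 belongs, did not follow Cd207 in the second experiment. It was 543 to 726 CPM in subset U, 382 to 517 in set P and 323 in both libraries of set Q. Cst3, Ccr7 and Irf8 led that list (means of 229, 65.9 and 58.4 CPM over all libraries), so its sum says little about list genes at low levels. These levels are given as values, and whether they share a source with the class II transcripts was not tested.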
